A study of Mus musculus with 2 samples.

Results

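The transcripts of 9 genes that write, erase and read DNA methylation were measured in the hindbrain of mouse embryos. They are the maintenance genes Dnmt1 and Uhrf1, the de novo methyltransferases Dnmt3a and Dnmt3b, the dioxygenases Tet1, Tet2 and Tet3, and the readers Mbd1 and Mbd2. They were taken by symbol from 55536 genes of GENCODE M21, and all 9 were found. The 2 libraries were biological replicates of 1 group: pool 1 was hindbrain of 120 B6NCrl embryos and pool 2 hindbrain of 88, both healthy, of mixed sex and at embryonic day 12.5. Both started from 10 ng of RNA, primed on the polyA tail with oligo-dT and fragmented by tagmentation. Neither pool was treated, so no contrast between conditions exists, and values are compared between genes and between the pools without a test. Since each pool mixes many embryos, the spread between the 2 pools is not the spread between animals.

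Cytosine methylation in mammals falls mainly on CpG sites. Dnmt1 copies it onto the new strand after replication, and Uhrf1 binds hemimethylated CpG and brings Dnmt1 there. Dnmt3a and Dnmt3b place methyl groups on unmethylated sites. The Tet enzymes oxidise 5-methylcytosine to 5-hydroxymethylcytosine and further forms, which base excision can remove, and 5-hydroxymethylcytosine is known to build up in neurons. Mbd1 and Mbd2 bind methylated CpG and are linked to transcriptional repression, Mbd2 through the NuRD complex.

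Several of these genes have more than 1 annotated start. For Dnmt3a the start separates the long from the short protein, while either start of Uhrf1 gives both of its annotated proteins. The sequences of alternative starts are shown for Dnmt1, Uhrf1 and Dnmt3a, whose transcripts divided between them. Each line holds the 250 bases before a start, 5′ to 3′ on the gene's strand, from RefSeq promoter windows on GRCm38.p6 (mm10), with each CpG in capitals. The Dnmt1 windows are chr9:20959889-20960138 for start 1 and chr9:20952980-20953229 for start 2, both on the minus strand. Those of Uhrf1 are chr17:56303087-56303336 for start 1 and chr17:56304063-56304312 for start 2, both on the plus strand. Those of Dnmt3a are chr12:3806730-3806979 for start 1, before the long form, and chr12:3891494-3891743 for start 3, before the short form, both on the plus strand.
Dnmt1 start 1: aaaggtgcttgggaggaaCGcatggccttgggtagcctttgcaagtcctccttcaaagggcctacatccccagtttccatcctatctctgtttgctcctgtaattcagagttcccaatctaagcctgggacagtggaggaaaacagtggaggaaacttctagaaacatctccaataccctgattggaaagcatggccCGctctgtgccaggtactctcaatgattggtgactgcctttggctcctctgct
Dnmt1 start 2: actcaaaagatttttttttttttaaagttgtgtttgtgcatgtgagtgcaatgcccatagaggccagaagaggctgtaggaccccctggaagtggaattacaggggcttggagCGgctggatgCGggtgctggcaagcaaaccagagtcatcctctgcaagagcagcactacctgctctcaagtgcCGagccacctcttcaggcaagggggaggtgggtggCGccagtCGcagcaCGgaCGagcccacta
Uhrf1 start 1: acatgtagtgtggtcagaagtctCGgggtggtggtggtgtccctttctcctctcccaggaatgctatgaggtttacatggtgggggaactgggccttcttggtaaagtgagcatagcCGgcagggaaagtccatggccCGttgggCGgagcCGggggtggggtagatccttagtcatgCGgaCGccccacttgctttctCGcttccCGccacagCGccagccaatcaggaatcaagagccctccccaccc
Uhrf1 start 2: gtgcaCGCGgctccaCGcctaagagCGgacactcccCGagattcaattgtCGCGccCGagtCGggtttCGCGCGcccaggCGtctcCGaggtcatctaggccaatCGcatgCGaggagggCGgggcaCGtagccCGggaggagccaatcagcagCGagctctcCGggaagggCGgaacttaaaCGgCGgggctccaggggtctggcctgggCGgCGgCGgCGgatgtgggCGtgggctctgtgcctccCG
Dnmt3a start 1: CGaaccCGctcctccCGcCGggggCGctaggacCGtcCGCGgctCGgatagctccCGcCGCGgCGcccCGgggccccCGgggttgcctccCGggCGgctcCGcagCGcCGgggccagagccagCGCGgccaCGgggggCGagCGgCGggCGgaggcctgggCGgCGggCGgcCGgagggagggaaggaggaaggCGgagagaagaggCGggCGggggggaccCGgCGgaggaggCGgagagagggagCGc
Dnmt3a start 3: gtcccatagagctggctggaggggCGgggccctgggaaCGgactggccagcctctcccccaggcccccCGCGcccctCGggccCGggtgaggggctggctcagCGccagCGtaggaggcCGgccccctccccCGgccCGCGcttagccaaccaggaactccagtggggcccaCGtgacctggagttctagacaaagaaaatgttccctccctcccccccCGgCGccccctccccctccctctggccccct

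The starts differed in the CpG they hold. In these 250 bases Dnmt1 start 1 had 2 CpG and Dnmt1 start 2 had 7, Uhrf1 start 1 had 10 and Uhrf1 start 2 had 30, and Dnmt3a start 1 had 38 and Dnmt3a start 3 had 15. Counted from 250 bases before to 50 after the start, the median of 32817 RefSeq windows was 7 CpG, with quartiles of 3 and 20. On that count, windows with fewer CpG than Dnmt1 start 1 (2 CpG) made up 14.1% of all windows, and those with fewer than Dnmt3a start 1 (46 CpG) made up 98.3%. Tet2 had the most CpG of the windows of these genes (57), Dnmt3b had 30, Tet3 22, and the Tet1 window, which lies at the start of the short transcript Tet1-207 and not at that of the full-length Tet1-206, had 17. No window was given for Mbd1 or Mbd2. The letters TTTCGCGC, 1 form of the site that E2F cell cycle factors are known to bind, were found on either strand in 0.323% of all windows. In Uhrf1 start 2 they lie 185 to 178 bases before the start. The window of a minor start of Dnmt1, start 3, which is not shown, holds them on the opposite strand 219 to 212 bases before the start, and TTTGGCGC (0.515% of windows) 33 to 40 bases after it. Start 3 (chr9:20952623) lies downstream of start 2 (chr9:20952979), and 166 of the 250 bases before start 3 are annotated Dnmt1 exon. The letters before start 3 lie within the first exon of the transcript Dnmt1-201, which begins at start 2. The third form searched, TTTCCCGC (1.07% of windows), was in no window of these genes, and neither was TATAAA (13.6% of windows). Any of the E2F letters occurred in 1.84% of windows. CCAAT, on either strand, occurred in 37.4% of windows and in 5 windows of Dnmt1, Uhrf1 and Tet3, all of these genes' windows but Dnmt1 start 2. None of these matches is a measurement of binding.

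Gene counts summed to 31469575 in pool 1 and to 29261472 in pool 2, and spike-ins took 3.31% and 4.25% of the library totals. The tissue label was checked against markers: 9 of 10 hindbrain markers were at 1 TPM or more in both pools, the exception being Egr2 with 0.88 and 1.17 TPM, against 2 of 6 forebrain markers (Emx2 and Lhx2). All 8 markers of radial glia and progenitors, all 7 of the cell cycle and all 8 of postmitotic neurons passed 1 TPM, and so did all 6 erythroid, all 6 mesenchyme, all 5 endothelial and pericyte and all 5 microglial markers. The levels below therefore sum over dividing and postmitotic cells and over cells from outside the neural tube. In such bulk tissue, fewer cells of a type and less RNA per cell cannot be told apart. The erythroid markers summed to 10404 TPM in pool 1 and 8097 in pool 2, and the mesenchyme markers to 1276 and 1664 TPM. Their part in the levels of the methylation genes was not tested.

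All 9 genes were expressed in both pools, from 5.70 TPM (Mbd2, pool 1) to 138 TPM (Dnmt3a, pool 2). TPM, a transcript's part of all transcripts in the library after division by length, was used to compare genes. Such a comparison depends on the transcripts that reads are assigned to. Uneven coverage along long transcripts was not tested. All 9 passed 1 TPM in both pools, where 29% of all 55536 genes and 61.8% of 22028 protein-coding genes did. Their median level was 33.8 TPM, against 21.8 TPM for the 13619 protein-coding genes past that threshold. From high to low the order was Dnmt3a, Dnmt1, Uhrf1, Tet3, Mbd1, Tet1, Tet2, Dnmt3b and Mbd2. Of the 8 steps in this order only that between Dnmt1 and Uhrf1 had overlapping pools. The deposited intervals around the TPM values, whose level the headers do not state, overlapped also between Mbd1 and Tet1, Tet1 and Tet2, and Dnmt3b and Mbd2. The order depended on the transcripts counted. Over transcripts with a complete coding sequence Tet1 (5.45 and 5.48 TPM) lay below Tet2 and below Dnmt3b (5.80 and 5.81 TPM). On the older annotation GENCODE M4 the mean of Mbd1 (23.8 TPM) lay below that of Tet1 (24.4 TPM), with overlapping pools.

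**Figure D1:**
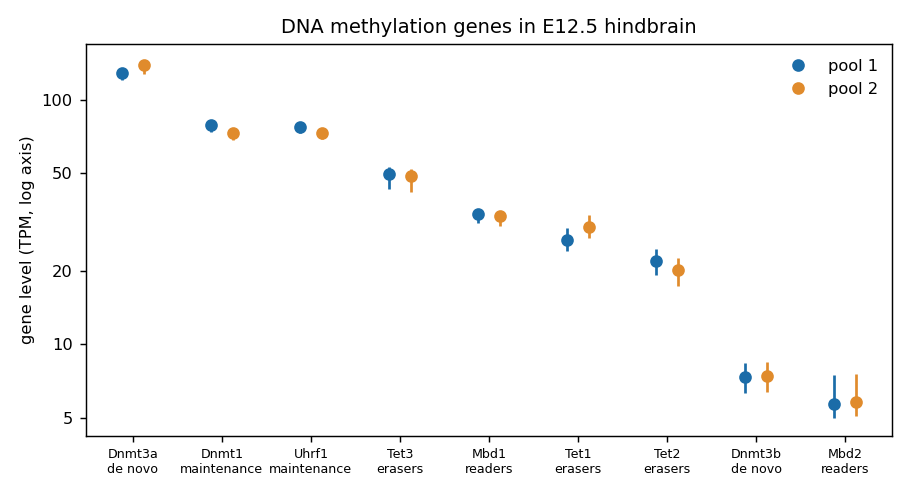
Gene level in TPM (log axis) of the 9 genes, ordered by mean, with 1 point for each pool and the deposited interval as a vertical line. Dnmt3a lies highest at 128 and 138 TPM, Dnmt1 and Uhrf1 lie together between 73.0 and 78.6 TPM, and Dnmt3b and Mbd2 lie lowest, all under 8 TPM.

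The maintenance pair stood at nearly the same level. Dnmt1 (ENSMUSG00000004099.16, chr9:20907209-20959888, minus strand) had 78.6 TPM in pool 1 and 73.0 in pool 2, a mean of 75.8 ± 3.95 (SD, n = 2), higher than 83.2% of the expressed protein-coding genes. Uhrf1 (ENSMUSG00000001228.14, chr17:56303321-56323486, plus strand) had 77.4 and 73.4 TPM, a mean of 75.4 ± 2.79 (SD, n = 2). Both were slightly higher in pool 1, and the pools of the 2 genes overlapped. The log2 ratio of Dnmt1 over Uhrf1 was 0.0075 ± 0.022 (SD, n = 2), less than its own spread. Its sign turned when only transcripts with a complete coding sequence were counted (-0.12) and with the older annotation GENCODE M4 (-0.14), so no order between the 2 genes can be read.

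Most Dnmt1 transcripts were assigned to the annotated form of 1620 codons, Dnmt1-201, which begins at start 2 and had 47.4 TPM in pool 1 and 47.0 in pool 2. It held 62.4% ± 2.87 (SD, n = 2) of the gene's TPM. Dnmt1-202, from start 1 further upstream, had 18.2 and 17.2 TPM, or 23.4% ± 0.275 (SD, n = 2). It has its own first exon, with 156 bases and 1 splice junction that no other Dnmt1 transcript holds, and its coding sequence of 1501 codons lacks 357 bases at the 5′ end of that of Dnmt1-201. The share was almost the same in both pools. Dnmt1-202 begins at the CpG-poor window shown above. Mouse oocytes are known to use an upstream first exon of Dnmt1 with a later start codon, and the annotation does not say whether Dnmt1-202 is that form. None of 7 germ cell and pluripotency markers reached 1 TPM in either pool. Dppa3 had no count, which allows up to 0.227 TPM in pool 1 and 0.246 in pool 2 (3 counts), Ddx4 had 0.55 and 0.75 TPM, Dazl 0.46 and 0.14, and the highest value of the list was that of Dppa5a with 0.96 and 0.52 TPM. The CpG-rich start 3 carried 2.91% ± 0.576 of the TPM of Dnmt1 (SD, n = 2). Its window overlaps the first exon of Dnmt1-201, so the CpG there do not belong to start 3 alone.

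Most of the Uhrf1 TPM was carried by the start richer in CpG. Start 2, with 33 CpG from 250 bases before to 50 after it and with the E2F letters, held 66.6% of the gene's TPM in pool 1 and 60.9% in pool 2. Start 1, with 12 CpG, held 30.8% and 35.2%. The leading transcript Uhrf1-204 had 47.3 and 43.8 TPM, followed by Uhrf1-201 with 13.9 and 11.4 TPM and Uhrf1-203 with 9.93 and 14.4 TPM. Uhrf1-204 and Uhrf1-203 have no exon base of their own, so their division rests on the combination of shared exons. By protein, the form of 782 codons had 61.2 and 55.2 TPM and that of 774 codons, which lacks 24 coding bases, had 14.2 and 15.4 TPM, a 4.32-fold and 3.59-fold difference. Nearly all Uhrf1 RNA was assigned to transcripts with a complete coding sequence (96.8% ± 0.936, SD, n = 2).

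**Figure D2:**
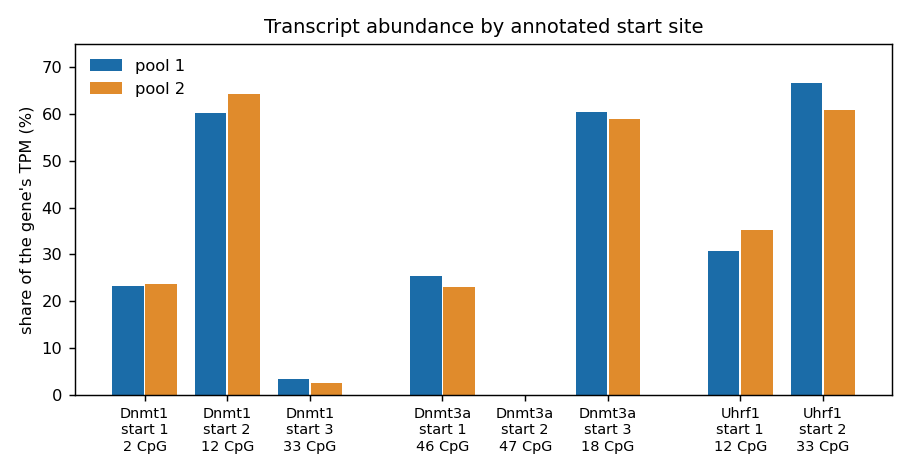
Share of each gene's TPM (%) carried by transcripts that begin within 100 bases of an annotated RefSeq start, in pool 1 (left bar) and pool 2 (right bar), with the number of CpG from 250 bases before to 50 after the start under each. Dnmt1 led at start 2 with 12 CpG, Dnmt3a at start 3 with 18 CpG, and Uhrf1 at start 2 with 33 CpG.

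By gene TPM, Dnmt3a was the highest of the 9 genes and Dnmt3b 1 of the 2 lowest. Dnmt3a (ENSMUSG00000020661.15, chr12:3806007-3914443, plus strand) had 128 TPM in pool 1 and 138 in pool 2, a mean of 133 ± 7.11 (SD, n = 2), higher than 91.7% of expressed protein-coding genes. Dnmt3b (ENSMUSG00000027478.15, chr2:153649450-153687730, plus strand) had 7.35 and 7.42 TPM, a mean of 7.39 ± 0.0495 (SD, n = 2), higher than 24.2% of them. Dnmt3a exceeded Dnmt3b 17.5-fold in pool 1 and 18.6-fold in pool 2, a log2 ratio of 4.17 ± 0.07 (SD, n = 2). Of the summed TPM of the 3 methyltransferases, 214 in pool 1 and 219 in pool 2, Dnmt3a made up 61.6% ± 2.37, Dnmt1 35.0% ± 2.35 and Dnmt3b 3.41% ± 0.0277 (SD, n = 2 each). The size of the Dnmt3a values depends on the short transcript Dnmt3a-205, to which 76.4 and 81.5 TPM were assigned. Its level rests on how shared reads were divided, as given below. Dnmt3a was highest also by expected counts, with 10066 in pool 1 and 9364 in pool 2.

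Dnmt3a has a long form, known as Dnmt3a1, and a short form without the N-terminal part, Dnmt3a2, which is made from the internal start 3. The short form of 689 codons had 77.6 TPM in pool 1 and 81.5 in pool 2. The long form of 908 codons had 32.5 and 31.7 TPM, so the short form was 2.39-fold and 2.57-fold higher per length. Nearly all of the short form was Dnmt3a-205, which lacks exons 1 to 6 of the 23 of Dnmt3a-201 and had 76.4 and 81.5 TPM. Dnmt3a-203, with the same coding sequence and a later 3′ end, had 1.26 TPM in pool 1 and was listed at 0 in pool 2. The order of the forms depended on the unit. Dnmt3a-205 is 2328 bases long and Dnmt3a-201 is 9685, and by expected counts the short form took 36.2% and 37.4% of the reads on complete coding Dnmt3a transcripts, against 63.8% and 62.6% for the long form. Dnmt3a-205 has 16 bases that no other Dnmt3a transcript holds and no junction of its own. Its level therefore rests on how reads in shared exons were divided and on an annotated end that lies before that of Dnmt3a-201. Start 1, before the long form, held 24.1% ± 1.66 of the TPM (SD, n = 2) and start 3 held 59.7% ± 1.11 (SD, n = 2). No transcript at start 2 was listed above 0.

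The low Dnmt3b signal was led by transcripts without 2 late exons. Forms of Dnmt3b that lack exons of the catalytic domain near the 3′ end are known to be without methyltransferase activity of their own. Transcripts without exons 21 and 22 of the 23 of Dnmt3b-207 (70 and 119 coding bases) had 3.33 TPM in pool 1 and 3.96 in pool 2, all in Dnmt3b-205 and Dnmt3b-206, which code for 776 codons. Complete coding transcripts with both exons had 2.47 and 1.85 TPM. The ratio of the forms without these exons over those with them was 1.35-fold in pool 1 and 2.14-fold in pool 2, higher in both pools and of uneven size. Dnmt3b-206 led with 41.0% ± 9.06 of the TPM of the gene (SD, n = 2), followed by Dnmt3b-207 with 23.5% ± 5.44 (SD, n = 2). The retained introns Dnmt3b-211 and Dnmt3b-212 held 10.8% ± 0.587 and 10.7% ± 0.0818 (SD, n = 2 each). The whole gene had 455 expected counts in pool 1 and 424 in pool 2, and none of Dnmt3b-205, Dnmt3b-206 and Dnmt3b-207 has an exon base of its own, so the division is uncertain.

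Tet3 was the highest of the dioxygenases. Tet3 (ENSMUSG00000034832.15, chr6:83362373-83459084, minus strand) had 49.5 TPM in pool 1 and 48.6 in pool 2, a mean of 49.0 ± 0.658 (SD, n = 2). Tet1 (ENSMUSG00000047146.17, chr10:62804570-62908996, minus strand) had 26.7 and 30.2 TPM, a mean of 28.5 ± 2.45 (SD, n = 2). Tet2 (ENSMUSG00000040943.12, chr3:133463679-133545139, minus strand) had 21.9 and 20.0 TPM, a mean of 20.98 ± 1.36 (SD, n = 2). The pools of the 3 genes did not overlap, and Tet3 made up 49.8% ± 0.889, Tet1 28.9% ± 2.36 and Tet2 21.3% ± 1.47 of their summed TPM (SD, n = 2 each). In log2 terms Tet3 over Tet2 was 1.23 ± 0.07, Tet3 over Tet1 0.79 ± 0.14, and Tet1 over Tet2 0.44 ± 0.22 (SD, n = 2 each).

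By TPM, a large part of the level of each Tet gene was assigned to transcripts annotated without a complete coding sequence. By expected counts, most reads on each gene went to complete coding transcripts. Tet1-206 took 76.5% of the reads on Tet1, Tet2-201 77.9% on Tet2 and Tet3-202 66.2% on Tet3 (means of the 2 pools). Transcripts with a complete coding sequence held 19.3% ± 1.59 of the TPM of Tet1, 40.4% ± 4.41 of Tet2 and 51.6% ± 2.62 of Tet3 (SD, n = 2 each). Over the 13619 expressed protein-coding genes the median of this share was 86.3%, with quartiles of 63.5% and 98.4%. Taken on the mean TPM, 3.75% of these genes had a lower share than Tet1, 10.9% than Tet2 and 17.0% than Tet3. Mbd1 was as low, with 47.9% and 14.9% of genes below it. The methyltransferases and Uhrf1 lay higher, with 96.8% for Uhrf1, 88.7% ± 2.57 for Dnmt1, 83.8% ± 2.77 for Dnmt3a and 78.6% ± 0.506 for Dnmt3b (SD, n = 2 each). Counting only complete coding transcripts, Tet3 had 24.6 TPM in pool 1 and 26.0 in pool 2, Tet2 had 8.17 and 8.70, and Tet1 had 5.45 and 5.48. On this level Tet2 lay above Tet1 in both pools, and the log2 ratio of Tet1 over Tet2 was -0.63 ± 0.06 (SD, n = 2), the reverse of that by gene TPM. Tet3 then made up 64.5% ± 0.199 of the 3 genes, Tet2 21.5% ± 0.223 and Tet1 14.0% ± 0.422 (SD, n = 2 each). This way of counting was chosen after the data were seen.

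**Figure D3:**
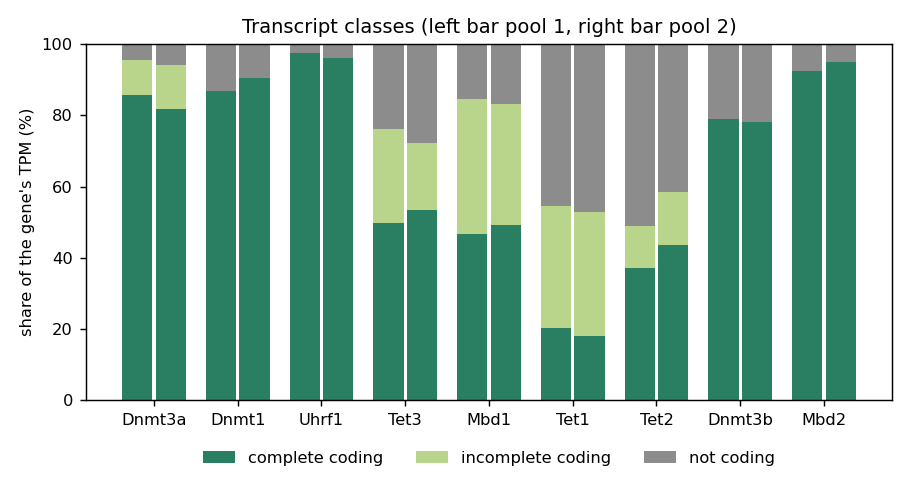
Share of each gene's transcript TPM (%) in transcripts with a complete coding sequence, in coding transcripts whose annotated start or end is missing, and in transcripts not annotated as coding, with pool 1 as the left and pool 2 as the right bar of each gene. Tet1 has the smallest complete coding share of the 9 genes (20.4% and 18.2%) and Uhrf1 the largest (97.4% and 96.1%).

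By transcript, Tet1 was led by Tet1-202, a processed transcript of 1505 bases without an annotated coding sequence, with 12.2 TPM in pool 1 and 12.7 in pool 2. The full-length Tet1-206 of 2039 codons had 5.44 and 5.48 TPM, the incomplete Tet1-207 had 5.64 and 4.68, and the incomplete Tet1-205 had 2.89 and 4.03. Tet1-207 is 414 bases long, and its TPM rest on 35.5 expected counts in pool 1 and 27.2 in pool 2. Tet1-206 is 14369 bases long, and by expected counts it led with 76.5% ± 1.45 of the reads on Tet1 (SD, n = 2), against 17.1% ± 0.0834 for Tet1-202 (SD, n = 2). Most Tet1 reads were thus assigned to the full-length transcript, while most of the TPM of Tet1 was not. Tet1-202 holds 169 exon bases and 1 junction of its own.

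Tet2-201, with 1912 codons, had 8.17 TPM in pool 1 and 8.70 in pool 2. The retained intron Tet2-210 had 8.39 and 6.29 TPM, so it led in pool 1 and Tet2-201 led in pool 2, and the incomplete Tet2-205 had 2.59 and 2.98 TPM. Tet2-201 took 77.9% ± 2.38 of the expected counts of the gene (SD, n = 2). Of the 10 Tet2 transcripts in M21, 9 are not in the older M4, and these 9 held 59.8% of the TPM. On M21 Tet2 was accordingly 2.20-fold above its M4 level, which was 9.25 TPM in pool 1 and 9.84 in pool 2. The reads changed less, with 1943 and 1827 expected counts on M21 against 1594 and 1563 on M4. Tet2 was the 1 of the 9 genes that was 1.5-fold or more higher on M21, where 5.13% of 13522 protein-coding genes were, and none of the 9 was 1.5-fold or more lower (1.01% of genes). Tet1 was 1.17-fold and Tet3 1.01-fold of the M4 level, where the median of the 13522 genes was 0.952-fold.

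Tet3 comes in a form with an N-terminal CXXC domain, which binds CpG-containing DNA, and a form without it. The form of 1668 codons, Tet3-202, lacks exons 1 and 2 of the 12 of Tet3-203, and its coding sequence lacks 405 bases of that of Tet3-203, of which 303 lie in exon 2. Shorter Tet3 forms without the early exons are known to lack the CXXC domain. It had 15.8 TPM in pool 1 and 16.8 in pool 2, against 8.84 and 9.12 TPM for the form of 1803 codons, Tet3-203. The shorter form was 1.79-fold and 1.85-fold higher, and led also by expected counts, with 66.2% ± 0.448 of the reads on the gene against 19.7% ± 0.333 (SD, n = 2 each). Tet3-202 has 5669 exon bases that no other Tet3 transcript holds, and all 5669 lie beyond the annotated 3′ end of Tet3-203. It has no junction of its own, while Tet3-203 has 835 exon bases and 2 junctions of its own. As in Dnmt3a, the division of the forms and the share of reads therefore depend on where the annotated transcripts end. The incomplete Tet3-204 of 469 bases had 13.0 and 9.06 TPM, and the processed transcript Tet3-201 had 10.5 and 12.6 TPM. The TPM of Tet3-204 rest on 96.2 expected counts in pool 1 and 61.75 in pool 2. Of the genes annotated within Tet3, Tet1, Dnmt3a and Dnmt3b, 5430434F05Rik, on the strand of Tet3, had 1.48 and 0.88 TPM, Gm48353, on the strand of Tet1, had 0.54 and 0.46, and the antisense genes Dnmt3aos and Dnmt3bos had 0.08 and 0 TPM and 0.16 and 0.35 TPM. The microRNA gene Mir6374, on the strand of Tet3, was listed at 0 TPM in pool 1 and at 20.4 TPM in pool 2, which rests on 0 and 3 expected counts. The sources used here do not say whether reads were counted by strand, so reads of such genes cannot be told apart with certainty.

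**Figure D4:**
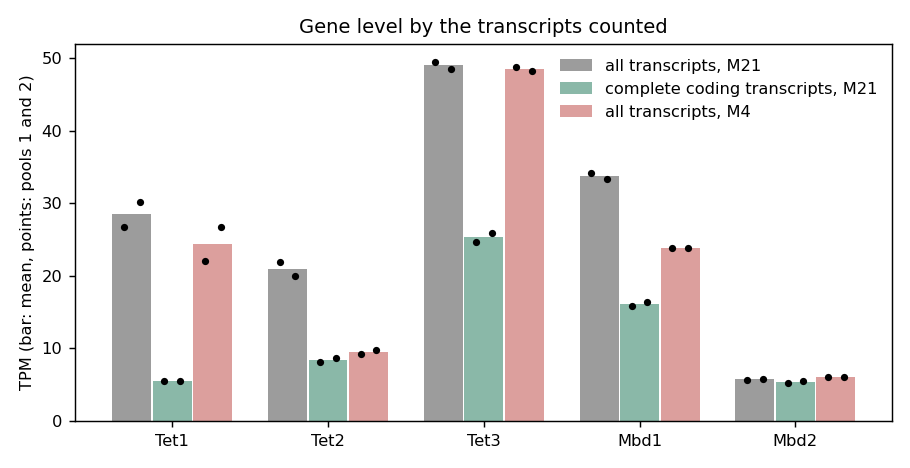
Level in TPM of the erasers and readers, over all M21 transcripts, over M21 transcripts with a complete coding sequence, and over all M4 transcripts, where bars are means and points the 2 pools. Over all M21 transcripts Tet1 lies above Tet2 and over complete coding transcripts below it, and Tet2 has 8.17 and 8.70 TPM there, near its M4 level of 9.25 and 9.84 TPM.

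Of the readers, Mbd2 was low and Mbd1 of middle rank. Mbd2 (ENSMUSG00000024513.16, chr18:70568189-70626131, plus strand) had 5.70 TPM in pool 1 and 5.80 in pool 2, a mean of 5.75 ± 0.0707 (SD, n = 2), higher than 20.1% of expressed protein-coding genes. Mbd1 (ENSMUSG00000024561.10, chr18:74267605-74282732, plus strand) had 34.2 and 33.4 TPM, a mean of 33.8 ± 0.552 (SD, n = 2), higher than 62.9% of them. The log2 ratio of Mbd2 over Mbd1 was -2.55 ± 0.04 (SD, n = 2), and Mbd2 was lower in both pools. Mbd2 rests on few reads, 172 expected counts in pool 1 (147 to 200, exact Poisson 95% interval, for counting error only) and 153 in pool 2 (130 to 179). Over complete coding transcripts the ratio was -1.59, because these held 93.6% ± 1.67 of the TPM of Mbd2 but 47.9% ± 1.94 of that of Mbd1 (SD, n = 2 each).

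The leading form of Mbd2 was not the same in the pools. Mbd2-201, with 414 codons, had 3.24 TPM in pool 1 and 2.45 in pool 2, and Mbd2-202, with 249 codons, had 2.03 and 3.04 TPM. Mbd2-202 shares the 5′ part of the coding sequence and lacks exons 3 to 7 of the 7 of Mbd2-201. With 120 and 83.7 expected counts on Mbd2-201 and 48.2 and 66.6 on Mbd2-202, the order of the 2 forms cannot be read from these libraries. For Mbd1, the leading transcript in both pools was Mbd1-204, an incomplete coding transcript with 13.0 and 11.3 TPM. The complete Mbd1-202, of 644 codons, had 8.22 and 6.89 TPM, and Mbd1-201, of 588 codons, which lacks exon 11 of 16 (168 bases), had 7.68 and 9.57, so the order of these 2 was also reversed between the pools. The retained intron Mbd1-203 had 4.09 and 3.33 TPM. Of the 6 Mbd1 transcripts 5 are not in M4, and the M21 level was 1.42-fold that on M4 (23.9 TPM in pool 1 and 23.8 in pool 2).

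The 9 genes differed little between the pools. By TMM-scaled expected counts, the log2 ratio of pool 1 over pool 2 ran from -0.07 (Tet3) to 0.10 (Uhrf1), with Dnmt1 at 0.07, Mbd1 at 0.08, Mbd2 at 0.06, Tet1 at -0.04, Tet2 at -0.02, Dnmt3b at -0.0081 and Dnmt3a at -0.0048. None reached a 2-fold difference, where 150 of 14989 genes with 50 or more mean counts (1%) did. The signs depended on the scaling. Scaled by spike-in totals, all 9 ratios were above 0, from 0.31 (Tet3) to 0.48 (Uhrf1), where the median of all 14989 genes was 0.37, a shift of 0.38 from TMM. Relative to that median the 9 genes ran from -0.07 to 0.10, as they did with TMM. By deposited TPM the ratios of Tet2 (0.13), Tet3 (0.03) and Mbd2 (-0.03) turned sign, and with DESeq2 size factors so did those of Dnmt3a and Dnmt3b, which lie next to 0. The median size of the log2 ratio was 0.060 for the 9 genes and 0.098 for all 14989. The largest difference, that of Uhrf1, was exceeded by 49.5% of all genes compared. Dnmt1, Uhrf1, Mbd1 and Mbd2 were the ones above 0 on this scale. The 7 cell cycle markers had a median log2 ratio of 0.10 between the pools with a summed level of 709 TPM in pool 1 and 668 in pool 2. The 8 neuron markers had a median of -0.14 and summed to 1958 TPM in pool 1 and 2036 in pool 2. The part of these markers in these ratios was not tested. For TPM, the coefficient of variation over the pools ran from 0.670% (Dnmt3b) to 8.62% (Tet1). For Dnmt3a, TPM were lower in pool 1 while the scaled counts were nearly equal.

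**Figure D5:**
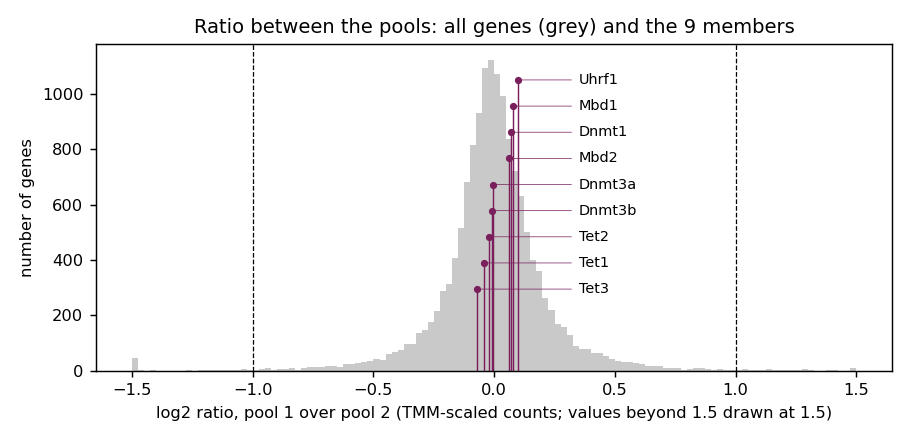
Histogram of the log2 ratio of pool 1 over pool 2 (TMM-scaled expected counts) over 14989 genes in grey, with the 9 genes as stems whose height carries no value and 2-fold limits as dashed lines. All 9 lie between -0.07 and 0.10, and with spike-in scaling all 9 would lie above 0.

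The partners of these genes were expressed to different extents. Of 11 partners of maintenance 10 passed 1 TPM in both pools, with a median of 68.0 TPM. Among them were the corepressor Trim28 (283 ± 15.0), the imprint-protecting zinc finger gene Zfp57 (166 ± 7.40) and the replication clamp Pcna (135 ± 3.95; SD, n = 2 each). Dppa3, which keeps Uhrf1 from chromatin in oocytes, was the exception with no count. For the de novo group 3 of 5 passed: Nsd1 and Setd2, which methylate the histone lysine that Dnmt3 enzymes read, with 61.8 ± 1.19 and 37.9 ± 0.799 TPM, and the RNA methyltransferase gene Trdmt1 with 5.50 ± 0.877 TPM (SD, n = 2 each). The germ line members failed it, Dnmt3l, a cofactor without catalytic activity, with 0.37 and 0 TPM and Dnmt3c with 0.13 and 0.03 TPM. The Dnmt3a and Dnmt3b levels above thus stood beside a Dnmt3l level under 1 TPM.

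In the list of demethylation and base excision, which holds genes that act before, with or after the Tet enzymes, 19 of 20 genes passed 1 TPM in both pools. Their list had a median of 48.7 TPM. Idh1 and Idh2, which make the 2-oxoglutarate that Tet enzymes need, had 302 ± 7.86 and 250 ± 3.33 TPM, the abasic site nuclease gene Apex1 194 ± 5.10 TPM, and Tdg, the glycosylase that removes oxidised 5-methylcytosine, 194 ± 3.22 TPM (SD, n = 2 each). Apobec2 had 1.59 TPM in pool 1 and 4.07 in pool 2, a log2 ratio of -1.33, and was the only gene of the 7 partner lists that differed 2-fold or more between the pools (42 and 99 expected counts).

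Among the genes listed as other readers or as relatives of readers 7 of 9 passed, with a median of 12.2 TPM. Being listed does not mean that a protein binds methylated CpG. Mbd3, a NuRD subunit whose mammalian form binds methylated CpG poorly, had 220 ± 12.3 TPM, Mbd5 33.3 ± 6.15, the zinc finger reader gene Zbtb38 14.7 ± 0.976 and Mbd6 14.6 ± 0.933 TPM (SD, n = 2 each). Mbd3l1 had no count and Mbd3l2 had 0.05 and 0.03 TPM. Mbd3 was thus the highest member of the methyl-CpG binding domain family measured here, while Mbd2 lay at 5.75 TPM. All 14 NuRD and corepressor genes passed, with a median of 87.6 TPM, led by the histone-binding subunit Rbbp4 (359 ± 1.12 TPM), the deacetylase Hdac2 (348 ± 9.26), the histone-binding subunit Rbbp7 (219 ± 2.95) and the corepressor Ncor1 (155 ± 1.03; SD, n = 2 each). All 6 CXXC genes, whose proteins bind unmethylated CpG, passed with a median of 35.1 TPM, led by Kdm2b (87.6 ± 1.27 TPM), Cxxc1 (66.9 ± 3.37), Kdm2a (46.0 ± 0.311) and Kmt2a (24.2 ± 1.85; SD, n = 2 each). Of 12 genes listed for methyl donor supply 10 passed, with a median of 23.3 TPM. They were led by Mat2a, which makes S-adenosylmethionine (320 ± 8.44 TPM), and by Ahcyl1 (103 ± 0.240), listed only as a relative of Ahcy (SD, n = 2 each). Next were Mat2b, the regulatory subunit of the Mat2a enzyme (60.4 ± 1.43), and the mitochondrial serine hydroxymethyltransferase gene Shmt2 (51.9 ± 0.0990, SD, n = 2 each). Gnmt and Bhmt, methyltransferase genes known from liver, had 0.38 and 0.25 TPM and 0.33 and 0.43 TPM.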

How the data were processed

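PolyA-plus RNA-seq of 2 hindbrain pools was used, each with a gene and a transcript table for GENCODE M21, the main one, and GENCODE M4, with mm10 coordinates according to the read-me of each sample. The sources used here do not name the quantification program. The authors' expected counts are estimated reads that need not be whole. The deposited TPM are per length and relative to all entries of the table, spike-ins included. The deposited FPKM, used as an alternative unit, scale reads by effective length and by library size. The deposited interval bounds around TPM were treated as a score, since the file headers give no level for them; for some transcripts the TPM lies outside them. The deposited percent of each isoform was read, but shares were computed from transcript TPM. Extraction was by mirVana, and the protocol links include a SMARTer ultra low input manual, per the labels. Amplification from low input can affect long transcripts, and no molecular identifiers are mentioned.

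The 9 genes and all lists were chosen with earlier results of these data known. All 9 were named, with each transcript of 10% or more of its gene in either pool; of each partner list, the 4 of highest mean TPM, up to 3 under 1 TPM in both pools and any 2-fold or more apart between the pools were named, except a few that are not reported here. All 55536 gene identifiers matched a symbol. Expected counts were scaled by TMM (edgeR 4.0.16, R 4.3.3) with a prior count of 0.5; tables were read with Python 3.11.15. With 1 group of 2 replicates no test was possible. In simulated data for pool 1 over pool 2 (14989 genes, 200 of them changed 4-fold, coefficient of variation 0.1), the 2-fold limit recovered 100% of the changed genes and called 0.0203% of the others. The size of the change and the spread were set beforehand, so this checks the calculation only. In the real pools 150 of 14989 genes (1%) were 2-fold apart, so the simulated spread does not describe these data. A transcript has a complete coding sequence where its type is protein_coding and no tag marks an unfound start or end. A transcript was put to a RefSeq start within 100 bases of its own. Alternatives were DESeq2 1.42.0 size factors, total counts, spike-in totals, TPM as deposited, other limits on low values, a prior count of 5, FPKM, expected counts, log2(TPM + 1), M4 and leaving out a pool. No protein sequences or genome were used here.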

Additional observations from a re-analysis of the deposited data

How the results depend on the processing

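No paired analysis was possible because the 2 replicates form 1 group and no contrast has a pair. The count of 9 genes at 1 TPM or more and that of 0 genes 2-fold apart were kept within 1.5 times under every alternative tried; at a limit of 10 TPM 7 of 9 passed. Over all genes, 150 were 2-fold apart between the pools, 253 with spike-in scaling, 781 with 10 or more mean counts and 7192 with no limit on counts. In log2, Dnmt1 over Uhrf1 (0.0075) was 0.56 by expected counts, -0.14 on M4, -0.12 over complete coding transcripts and -0.0079 to 0.023 with 1 pool left out, reversed without replicate 1. Dnmt3a over Dnmt3b (4.17) was 4.47 by expected counts, 4.00 as log2(TPM + 1), 4.27 over complete coding transcripts and 4.13 to 4.22 with 1 pool left out. Tet1 over Tet2 (0.44) was 0.053 by expected counts, 1.35 on M4, -0.63 over complete coding transcripts and 0.28 to 0.59 with 1 pool left out. Tet3 over Tet1 (0.79) was 1.39, 1.00 and 2.21 in these settings and 0.69 to 0.89 with 1 pool left out; Tet3 over Tet2 (1.23) was 1.44, 2.35 and 1.58, and 1.17 to 1.28. Mbd2 over Mbd1 (-2.55) was -3.51, -1.97 and -1.59, -2.37 as log2(TPM + 1), and -2.58 to -2.53 with 1 pool left out. Counts are not per length, which moves them by the ratio of gene lengths, and M4 lacks 9 Tet2 and 5 Mbd1 transcripts; otherwise the cause was not tested. Counting complete coding transcripts alone was added after the data were seen. M4 moved 6 of 9 gene levels and 5 of 8 shares of the leading isoform by more than the SD of the pools. Complete coding transcripts moved 8 of 9 levels, and expected counts moved 8 of 9 shares. The median fold of M21 over M4 was 0.952 over 13522 coding genes. Of the levels that M4 moved, those of Uhrf1 (0.949), Dnmt3b (0.9505) and Mbd2 (0.946) lay near this median, with nearly the same expected counts on both annotations. Their move is thus about that of coding genes at large. With 1 of 2 pools left out, a level or share cannot move by more than the SD of the pools, so this says nothing of stability. Spike-in scaling raised all 9 pool ratios. Depth limits Mbd2 and Dnmt3b most, with 172 and 153 and with 455 and 424 expected counts, and 2 pools give no test.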

Other observations

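Uhrf2, the paralog of Uhrf1, had 71.7 TPM in pool 1 and 64.2 in pool 2, a mean of 68.0 ± 5.28 (SD, n = 2), and the pools of Uhrf1 (77.4 and 73.4 TPM) lay above both.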
